A study of Mus musculus with 4 samples.

Results

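Transcripts of 10 enzymes were examined in mouse heart, most of which hydrate, oxidise, cleave or isomerise acyl-CoA after the acyl-CoA dehydrogenases in fatty acid beta-oxidation: Hadha, Hadhb, Hadh, Acaa2, Echs1, Ech1, Eci1, Eci2, Decr1 and Hsdl2. They were taken by gene symbol from a table of 54752 gene identifiers, all 10 were present, and all 10 were among the 15283 genes that passed the filter on low counts. RNA came from hearts at postnatal day 14, with 2 wild-type libraries and 2 libraries whose genotype label is Carm1 mutant. Carm1 encodes an arginine methyltransferase that acts on histones and transcriptional coactivators. The series text calls the hearts neonatal. The sources used here give no allele, strain or sex, nor whether a group holds separate animals, so the p-values rest on a spread between libraries that may be technical.

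Beta-oxidation shortens a fatty acyl-CoA in the mitochondrial matrix by a repeated cycle of dehydrogenation, hydration, renewed dehydrogenation and thiolytic cleavage, releasing acetyl-CoA. Unsaturated fatty acids also need auxiliary isomerases and a reductase that move or remove double bonds. Fatty acids become the main fuel of the mouse heart in the weeks after birth, when the genes of this pathway are normally expressed at a rising level.

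Library totals ran from 11677604 to 22217442 counts, and genes of the mitochondrial chromosome took 27.8% to 33.1% of a library. Carm1 (ENSMUSG00000032185) had 803 and 1025 counts in wild type against 897 and 432 in the mutant-labelled pair, or 45.9 and 52.3 against 35.8 and 31.8 CPM (counts scaled to a common library size) after TMM scaling, the trimmed-mean scaling of edgeR. Its log2 fold change was −0.54 (SE 0.19, edgeR FDR 0.114), so it was not called at the FDR threshold of 0.05, and a count over the whole gene does not test the allele. It was called without wild type replicate 1 (−0.64, edgeR FDR 0.0201) and without wild type replicate 2 (−0.48, edgeR FDR 0.0352), and with library totals alone it was −0.16. The groups are therefore called wild type and mutant-labelled. Xist had 12 and 15 counts in wild type against 8116 and 3921 in the other group, and 4 Y-linked genes together had 1769 and 2236 against 7 and 0. Genotype label and sex thus cannot be told apart in any comparison below. The 12 cardiomyocyte markers examined were all expressed, at a summed 97053 and 81785 CPM in wild type against 49360 and 53257 CPM in the mutant-labelled pair. Of these 12 markers 1 was called lower, and their median log2 fold change was −0.77. Summed markers of fibroblasts were 3375 and 3903 CPM against 5754 and 6106 CPM, with 1 of 8 called higher. Those of endothelial cells were 1276 and 1528 CPM against 1954 and 1698 CPM. Of these 8 endothelial markers 0 were called, and 1 had a negative log2 fold change. In whole-heart RNA, fewer cells of a type and less RNA per cell cannot be told apart, and the part of these marker levels in the results below was not tested.

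Of the 10 enzyme transcripts, 9 fell in the mutant-labelled hearts, by 2.03-fold to 2.96-fold, and 0 rose. Over all genes tested, 4.58% were called lower and 2.79% higher. Eci1 was the only enzyme of the 10 that did not pass. At an unadjusted p below 0.05 in edgeR the counts were also 9 lower and 0 higher, against 14.7% and 13.1% of all genes at that threshold, and DESeq2 and limma-voom likewise called 9 lower and 0 higher. DESeq2 called 7.29% of all genes lower and 3.87% higher, and limma-voom 4.59% and 2.79%. The median log2 fold change of the 10 was −1.25, against 0.02 over all genes tested. Both mutant-labelled libraries lay below both wild-type libraries in 9 of the 10, an arrangement found in 28.7% of all genes tested. The 10 enzymes ranked between 40 and 953 by mean CPM among the genes tested. Of 904 other genes within the same range of mean CPM (123 to 1587), 15.0% were called lower, with a median log2 fold change of −0.35. In 53.0% of these 904 genes both mutant-labelled libraries also lay below both wild-type libraries.

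The number of calls moved with the library left out, and the sizes moved less. Without wild type replicate 1, 9 of the 10 were called lower, and without wild type replicate 2 all 10 were, against 8.76% and 19.5% of all genes tested. Without mutant-labelled replicate 1 only Hsdl2 was called (1.15% of all genes), and without mutant-labelled replicate 2 none was (0.987% of all genes). In both of these last fits 8 of the 10 were lower at an unadjusted p below 0.05 in edgeR, against 6.28% and 6.74% of all genes at that threshold. The lone mutant-labelled library was assumed to vary like the wild-type pair. The median log2 fold change of the 10 was −1.03, −1.48, −1.21 and −1.27 in these 4 fits, in the same order. With library totals as the only scaling, the median of all genes was 0.41 instead of 0.02. On that scale 6 of the 10 were called lower, against 1.35% of all genes, with a median of −0.84, and Hadha, Acaa2 and Eci2 lost their calls (edgeR FDR 0.0646, 0.0521 and 0.0634).

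**Figure D1:**
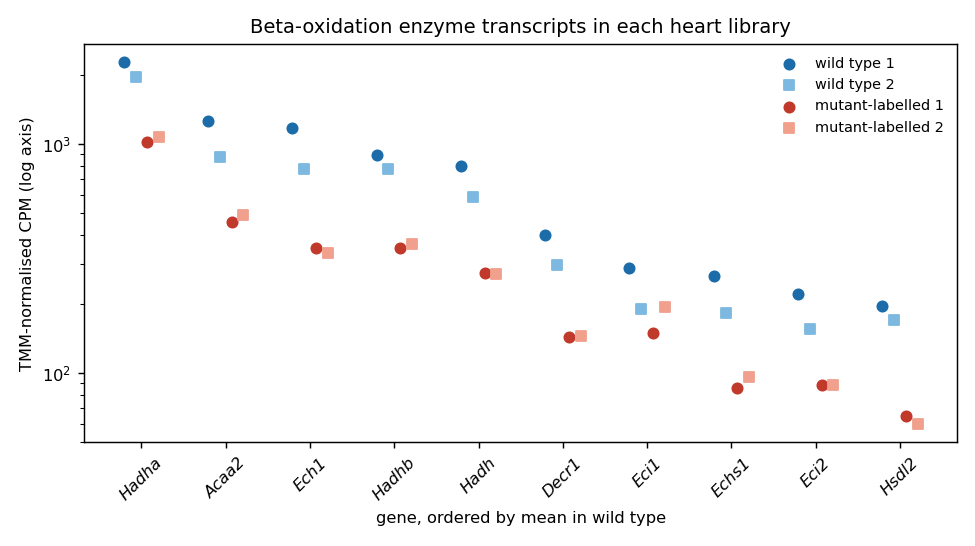
TMM-normalised CPM (log axis) of the 10 enzyme transcripts in each of the 4 heart libraries, ordered by the wild-type mean; each point is 1 library. In 9 genes both mutant-labelled libraries lie below both wild-type libraries, and only in Eci1 do the groups overlap.

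The long-chain steps are carried out by the mitochondrial trifunctional protein, whose alpha subunit (Hadha) holds the long-chain enoyl-CoA hydratase and hydroxyacyl-CoA dehydrogenase and whose beta subunit (Hadhb) is the long-chain thiolase. Hadha (ENSMUSG00000025745, GRCm38 chromosome 5, 30118304 to 30155162, minus strand) was the most abundant of the 10, with 2279 and 1971 CPM in wild type against 1022 and 1076 CPM in the mutant-labelled pair. Hadhb (ENSMUSG00000059447, chromosome 5, 30155248 to 30184593, plus strand) had 899 and 776 CPM against 351 and 366 CPM. The groups were well separated in both genes, and the mutant-labelled pair was the tighter one. Hadha fell by 1.02 on the log2 scale (SE 0.23, 95% interval −1.56 to −0.48, edgeR FDR 0.0416). Hadhb fell by 1.22 (SE 0.22, −1.73 to −0.72, edgeR FDR 0.0228). The Hadha call was also lost with upper-quartile factors (edgeR FDR 0.0543), where 8 of the 10 enzymes and 3.62% of all genes were called lower, and with the replicate number as a block (edgeR FDR 0.0954), where 8 of the 10 and 4.2% of all genes were.

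The genes of both subunits lie head to head, with only 85 bases between their GENCODE starts, so that a single stretch of DNA lies upstream of each GENCODE start. It is shown because 2 of the genes that fell share it, beside the upstream stretches of Hsdl2, which also fell, and of Eci1, which was not called. Sequences are from RefSeq (GRCm38.p6) and are cut to bases that lie in no exon of GENCODE M21. They are written 5′ to 3′ on the strand given, and capitals mark GGGCGG or its reverse complement CCGCCC, the GC box bound by Sp1-type factors.
Hadha and Hadhb, chr5:30155163-30155247, plus strand: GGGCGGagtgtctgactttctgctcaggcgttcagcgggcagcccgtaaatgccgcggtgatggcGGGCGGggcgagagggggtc
Hsdl2, chr4:59581313-59581562, plus strand: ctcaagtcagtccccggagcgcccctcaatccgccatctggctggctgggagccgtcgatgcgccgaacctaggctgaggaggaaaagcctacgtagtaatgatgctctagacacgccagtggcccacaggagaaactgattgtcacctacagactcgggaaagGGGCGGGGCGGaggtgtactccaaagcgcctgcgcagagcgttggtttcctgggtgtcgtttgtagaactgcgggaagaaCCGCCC
Eci1, chr17:24426433-24426640, plus strand: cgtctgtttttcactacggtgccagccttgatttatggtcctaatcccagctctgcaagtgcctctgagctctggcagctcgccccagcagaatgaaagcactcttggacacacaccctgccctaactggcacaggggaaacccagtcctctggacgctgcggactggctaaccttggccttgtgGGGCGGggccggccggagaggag

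Promoter windows of 8 of the 10 genes were in the RefSeq table, and the 250 bases before each start were searched on both strands. GGGCGG was in all 8, Eci1 included, and in 32.7% of 32817 promoter windows of the table. The Ech1 matches lie outside the 129 bases of its window that precede the GENCODE exon. The windows of Hadha and Hadhb overlap and share a site, and the overlapping pair of GC boxes in the Hsdl2 sequence was counted as separate matches. CCAAT was in 2 of the 8, Hadh and Eci2, and in 33.8% of all windows. The DR1 consensus, the direct repeat bound by PPAR-RXR pairs, was in 0 of the 8 and in 0.0335% of all windows. The estrogen-related receptor element TCAAGGTCA was in 0 of the 8 and 0.387% of all windows, and AAGGTCA, which it contains, in 0 and 4.08%. The palindromic NRF1 consensus was in 0 of the 8 and in 0.777% of all windows. A match is a description of letters, and the absence of one says only that these letters are not in this window.

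Hadha took a larger share of the trifunctional subunit counts in both mutant-labelled libraries, a measure that does not depend on scaling between libraries. Hadha made up 71.7% (exact Clopper-Pearson 95% interval 71.3 to 72.1) and 71.7% (71.4 to 72.1) of Hadha plus Hadhb counts in wild type. In the mutant-labelled libraries it made up 74.4% (74.0 to 74.9) and 74.6% (74.0 to 75.2); these intervals cover counting error only. The wild-type pair differed by far less than the groups, whose means were 2.80 percentage points apart. Permuted exactly and two-sided over 2 against 2 libraries, p was 0.333, the smallest possible.

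Hadhb has near-identical processed copies elsewhere in the genome, so its own count is uncertain. Gm13910, a processed pseudogene on chromosome 2 (108948806 to 108950233) that matched the Hadhb transcript at 99.8% identity over 1428 bases, was itself given 4053 and 3794 counts in wild type against 1606 and 887 in the mutant-labelled pair. Gm9108 on chromosome 15, at 97.6% identity, had 59, 74, 21 and 12. The sources used here do not say how reads that match several places were shared out. Gm13910 fell by 1.72 on the log2 scale (SE 0.20, edgeR FDR 0.00836), and it held 20.5% and 20.0% of the counts of Hadhb plus Gm13910 in wild type against 15.4% and 15.1%. With both copies added to Hadhb, the summed gene had 1134 and 974 CPM against 416 and 432 CPM and fell by 1.31 (SE 0.22, edgeR FDR 0.0204). Hadha was then 66.8% and 66.9% of the subunit counts in wild type against 71.1% and 71.3% in the mutant-labelled pair. The direction of the shift was the same with and without the copies, and it was 4.36 percentage points with them.

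**Figure D2:**
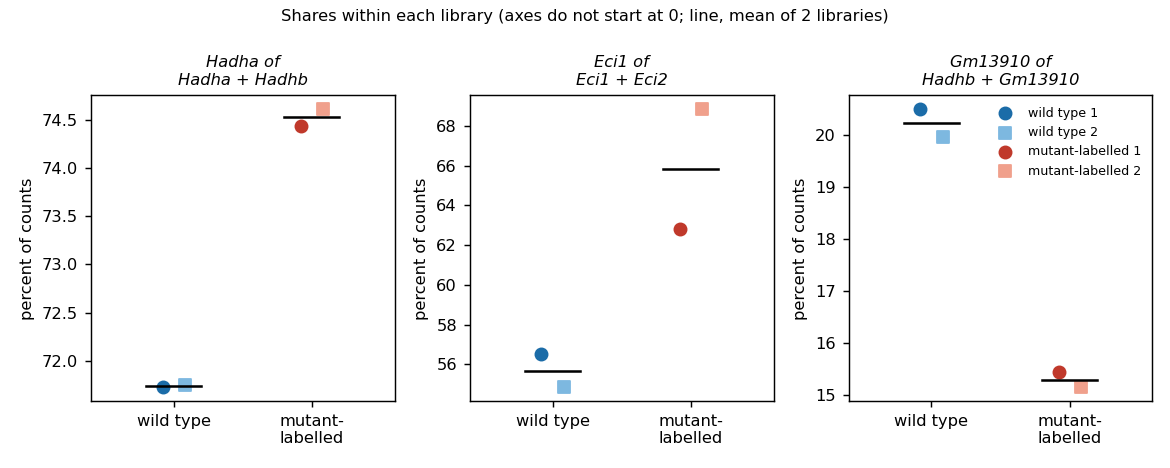
Percent of counts within each library for Hadha of Hadha plus Hadhb, Eci1 of Eci1 plus Eci2, and the Hadhb copy Gm13910 of Hadhb plus Gm13910; points are libraries, lines are means of 2, and axes do not start at 0. Hadha and Eci1 take larger shares in both mutant-labelled libraries, and Gm13910 a smaller one (15.1% and 15.4% against 20.0% and 20.5%).

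The medium-chain and short-chain steps use separate soluble enzymes: Echs1, the short-chain enoyl-CoA hydratase, Hadh, the hydroxyacyl-CoA dehydrogenase, and Acaa2, the medium-chain ketoacyl-CoA thiolase. Echs1 (ENSMUSG00000025465, chromosome 7, 140105710 to 140116476, minus strand) had 265 and 182 CPM in wild type against 86.3 and 96.1 CPM in the mutant-labelled pair. Hadh (ENSMUSG00000027984, chromosome 3, 131233419 to 131272101, minus strand) had 800 and 585 CPM against 274 and 271 CPM. Acaa2 (ENSMUSG00000036880, chromosome 18, 74779197 to 74806208, plus strand) had 1259 and 880 CPM against 455 and 491 CPM. In all 3 genes wild type replicate 1 was the highest library and the groups did not overlap.

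These 3 transcripts fell by a similar amount. The log2 fold change was −1.30 for Echs1 (SE 0.24, 95% interval −1.85 to −0.74, edgeR FDR 0.0245), −1.35 for Hadh (SE 0.24, −1.90 to −0.79, edgeR FDR 0.0222) and −1.18 for Acaa2 (SE 0.25, −1.77 to −0.59, edgeR FDR 0.0353). The intervals of Echs1, Hadh, Acaa2, Hadha and Hadhb overlapped one another widely. The thiolase balance overlapped between groups: Acaa2 was 58.4% and 53.1% of Acaa2 plus Hadhb counts in wild type against 56.5% and 57.3% in the mutant-labelled pair, which lay between the wild-type values. Hadha was 74.0% and 77.1% of Hadha plus Hadh counts against 78.9% and 79.9%. The groups did not overlap and differed by 3.82 percentage points (exact two-sided permutation p = 0.333, the smallest possible). Neither of these pairs of genes was planned for comparison. Echs1 shares 142 exonic bases with Paox on the opposite strand, which had 57 to 99 counts in a library, and the sources used here do not say whether strand was kept.

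Among the auxiliary enzymes for unsaturated acyl chains, Ech1 isomerises dienoyl-CoA, Decr1 reduces dienoyl-CoA, and Eci1 and Eci2 shift the double bond of enoyl-CoA. Ech1 (ENSMUSG00000053898, chromosome 7, 28825217 to 28832247, plus strand) had 1175 and 779 CPM in wild type against 350.0 and 333 CPM in the mutant-labelled pair. Decr1 (ENSMUSG00000028223, chromosome 4, 15917240 to 15945507, minus strand) had 399 and 296 CPM against 144 and 145 CPM. Both mutant-labelled libraries were close to each other and far below the lower wild-type library. The log2 fold change was −1.52 for Ech1 (SE 0.26, 95% interval −2.13 to −0.91, edgeR FDR 0.0209) and −1.27 for Decr1 (SE 0.23, −1.79 to −0.74, edgeR FDR 0.0228), and both fell.

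Of the isomerases, Eci2 fell and Eci1 was not called. Eci2 (ENSMUSG00000021417, chromosome 13, 34977748 to 35027096, minus strand), which is found in mitochondria and peroxisomes, had 221 and 156 CPM in wild type against 88.2 and 88.2 CPM in the mutant-labelled pair, and fell by 1.10 (SE 0.23, −1.63 to −0.57, edgeR FDR 0.0323). Eci1 (ENSMUSG00000024132, chromosome 17, 24426641 to 24439348, plus strand), the mitochondrial isomerase, had 288 and 189 CPM against 149 and 195 CPM. Mutant-labelled replicate 2 thus lay above wild type replicate 2, and the groups overlapped. The log2 fold change of Eci1 was −0.47 (SE 0.26, 95% interval −1.08 to 0.14, edgeR FDR 0.284), an interval that reaches from 47.1% to 110% of the wild-type level. Only without wild type replicate 2 was it called (−0.78, edgeR FDR 0.00470), while it was −0.16 without wild type replicate 1 (edgeR FDR 0.612), −0.29 without mutant-labelled replicate 1 (edgeR FDR 0.885) and −0.05 with library totals alone.

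Relative to Eci2, Eci1 was higher in both mutant-labelled libraries. It made up 56.5% (exact Clopper-Pearson 95% interval 55.5 to 57.5) and 54.8% (53.6 to 56.0) of Eci1 plus Eci2 counts in wild type. The shares were 62.8% (61.5 to 64.0) and 68.8% (67.3 to 70.3) in the mutant-labelled libraries. The pair was compared after its values were seen, and the exact two-sided permutation test gave p = 0.333, the smallest possible. Eci3, a neighbouring gene whose transcript is 92.3% identical to Eci2 over 807 bases, had 0, 0, 3 and 1 counts. An antisense gene over Eci2, Gm16984, had 6 to 16 counts in a library.

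Hsdl2 encodes a hydroxysteroid dehydrogenase-like protein of the short-chain dehydrogenase family, the same family as Decr1; its substrate is less well defined than those of the other enzymes. Hsdl2 (ENSMUSG00000028383, chromosome 4, 59581563 to 59618689, plus strand) had 197 and 171 CPM in wild type against 64.6 and 59.6 CPM in the mutant-labelled pair. It had the narrowest interval of the 10, a log2 fold change of −1.56 (SE 0.20, 95% interval −2.03 to −1.10, edgeR FDR 0.00984), and thus 33.8% of the wild-type level. It was called in each alternative fit except the one without mutant-labelled replicate 2 (log2 fold change −1.51, edgeR FDR 0.0630). Hsdl2 made up 33.0% and 36.6% of Hsdl2 plus Decr1 counts in wild type against 31.0% and 29.1% in the mutant-labelled pair. That comparison was not planned, and its exact two-sided permutation p was 0.333, the smallest possible.

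**Figure D3:**
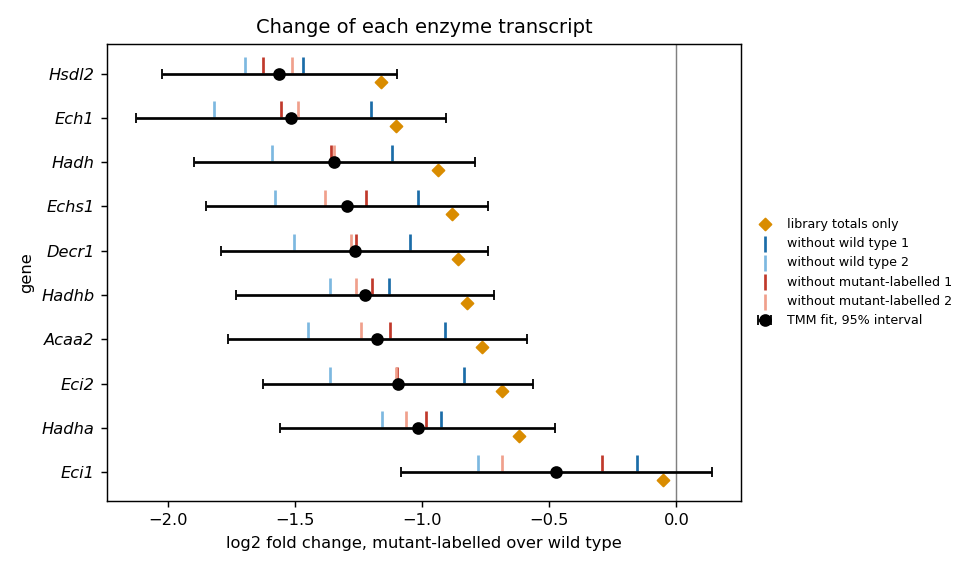
Log2 fold change of each enzyme transcript, mutant-labelled over wild type, with its 95% interval (black; edgeR with TMM scaling), with library totals alone (diamonds) and with 1 library left out (vertical ticks). All values are below 0, the interval of Eci1 alone crosses 0, and leaving out wild type replicate 1 gives smaller falls than leaving out wild type replicate 2.

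Per length of transcript, the order of the enzymes differed from the order by CPM. With CPM divided by the length of the longest principal transcript (a length chosen after the values were seen), Ech1 led in wild type at 771 ± 221 CPM per kb (SD, n = 2), then Acaa2 at 706 ± 177, Hadha at 529 ± 54.2, Hadhb at 409 ± 42.2 and Hadh at 387 ± 84.9. Lower down were Eci1 at 210 ± 61.1, Echs1 at 144 ± 37.6, Decr1 at 118 ± 24.7, Eci2 at 108 ± 26.4 and Hsdl2 at 70.4 ± 7.06 CPM per kb. Ech1 and Acaa2, Acaa2 and Hadha, Hadhb and Hadh, Echs1 and Decr1, and Decr1 and Eci2 were neighbours whose means lay within the larger of their SDs. In the mutant-labelled libraries the same measure was 312 ± 16.7 for Acaa2, 270 ± 9.40 for Ech1 and 261 ± 9.55 for Hadha, so that Acaa2 led there and Ech1 and Hadha lay within their SDs. Eci1, at 151 ± 28.6 CPM per kb, was level with Hadh at 152 in those libraries. With merged exons of all annotated transcripts as the length, Echs1 came last in wild type at 27.0 ± 7.07 CPM per kb, since its merged model spans 8286 bases against 1557 in the principal transcript.

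Within the summed counts of the 10, some genes took a larger and some a smaller part in the mutant-labelled libraries. Hadha took 29.3% and 32.9% of the sum in wild type against 34.3% and 34.5% in the mutant-labelled pair. Eci1 took 3.69% and 3.16% against 4.99% and 6.24%. Ech1 took 15.1% and 13.0% against 11.7% and 10.7%, and Hsdl2 2.53% and 2.85% against 2.17% and 1.91%. The groups did not overlap for these genes, nor for Hadh and Decr1, which took smaller shares in the mutant-labelled libraries. They overlapped for Hadhb, Acaa2, Echs1 and Eci2. These shares add up to the whole, so larger shares of some genes go with smaller shares of others. No test was made of them, and how often groups separate in this way over all genes was not counted. The sum of the 10 was 0.626% and 0.564% of all counts in wild type against 0.337% and 0.363% in the mutant-labelled pair, with no scaling between libraries.

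Set against other transcripts of the same library, the 10 enzymes summed took fewer counts per cardiomyocyte marker count in both mutant-labelled libraries. Per count of other fatty acid oxidation genes the summed numbers overlapped. Per 100 counts of the 12 cardiomyocyte markers there were 8.02 and 7.32 counts of the 10 enzymes in wild type against 6.04 and 5.86 in the mutant-labelled pair, 77.6% of the wild-type mean. The ratio was lower in both mutant-labelled libraries for 9 of the 10 singly. It ran from 59.0% of the wild-type mean for Hsdl2 to 85.9% for Hadha. For Eci1 it was higher, at 126% of the wild-type mean (0.296 and 0.231 against 0.302 and 0.366 per 100 counts). The share of all genes lower in both libraries was not counted on this ratio. On TMM-scaled CPM it was 28.7% of all genes tested and 53.0% of the other genes within the enzymes' range of mean CPM. Per 100 counts of 24 genes used as a reference for mitochondrial mass there were 32.4 and 34.1 counts of the enzymes against 28.3 and 26.9, 82.9% of the wild-type mean. Each of these comparisons, chosen after the data were seen, has an exact two-sided permutation p of 0.333, the smallest possible. Singly against the mitochondrial mass reference, the groups overlapped for Hadha (91.5% of the wild-type mean, exact two-sided permutation p = 0.667). There Eci1 was higher in both mutant-labelled libraries (136%), and the remaining enzymes were lower in both. Per 100 counts of 18 other genes of mitochondrial fatty acid oxidation there were 125 and 117 counts against 120 and 124, so the groups overlapped (exact two-sided permutation p = 1). Singly, Hadha (112% of the wild-type mean) and Eci1 (165%) were higher in both mutant-labelled libraries. Hadh (89.7%), Ech1 (80.2%) and Hsdl2 (76.6%) were lower in both, and the groups overlapped for the remaining enzymes. The share of all genes whose groups separate was not counted on these ratios either.

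Many genes of the steps before these enzymes were lower as well. The list held 18 genes of activation, the carnitine shuttle, the acyl-CoA dehydrogenases and electron transfer, with a median log2 fold change of −1.01. By edgeR 10 of the 18 fell, 8 did not pass and 0 rose, and 15 were lower and 0 higher at an unadjusted p below 0.05. Of all genes 4.58% were called lower in the main fit, and 14.7% were lower at the unadjusted threshold. These shares are the background in the main fit for each list below too. Acadvl, which dehydrogenates very long acyl chains and so supplies the trifunctional protein, had 438 and 341 CPM in wild type against 110.4 and 106 CPM in the mutant-labelled pair. Acad11, another acyl-CoA dehydrogenase, had 54.4 and 51.8 against 19.5 and 22.6 CPM. Etfdh, which hands their electrons to ubiquinone, had 572 and 453 against 170.0 and 177 CPM. With wild type replicate 1 left out 16 of the list were called lower, with wild type replicate 2 left out 15, with mutant-labelled replicate 1 left out 1, and with mutant-labelled replicate 2 left out 2. Counts without each library are given in that order for the other lists too. Their background is the share of all genes given above for the same fits. Its median with library totals alone was −0.61.

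Related hydratases, dehydrogenases and thiolases of other pathways also held genes that fell. Of 13 tested, 4 fell, 9 did not pass and 0 rose (10 lower and 0 higher at an unadjusted p below 0.05 in edgeR), with a median of −0.77. Those that fell included Acat1, the mitochondrial acetoacetyl-CoA thiolase (log2 fold change −1.23, edgeR FDR 0.0245), and Echdc1, an enoyl-CoA hydratase domain protein at under 4 CPM (−2.18, edgeR FDR 0.0303). Acat1 had 696 and 533 CPM in wild type against 261 and 262 CPM in the mutant-labelled pair, which did not overlap. Lower calls were 6, 11, 0 and 0 without each library in turn, with 4 and 7 lower at an unadjusted p below 0.05 in edgeR in the last pair of fits. With wild type replicate 1 left out the median was −0.51, and with library totals alone −0.35.

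Peroxisomes run a parallel beta-oxidation with their own oxidases and hydratases. Of 15 peroxisomal genes tested, 4 fell, 11 did not pass and 0 rose (8 lower and 0 higher at an unadjusted p below 0.05 in edgeR), with a median of −0.51. Abcd3, a fatty acid transporter of the peroxisomal membrane, had a log2 fold change of −0.89 (edgeR FDR 0.0304), and Phyh, which starts the breakdown of phytanic acid, one of −1.07 (edgeR FDR 0.0305). Acox2, Acaa1b and Eci3 did not pass the filter on low counts. Lower calls were 7, 8, 0 and 0 without each library in turn, with 6 lower at an unadjusted p below 0.05 in edgeR in each of the last pair. With library totals alone 0 were called lower by edgeR, 5 were lower at an unadjusted p below 0.05 (4.87% of all genes), and the median was −0.13.

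Some regulators known to act on these genes fell. Of 17 PPAR, RXR, ERR and PGC-1 genes and related factors, 6 fell, 11 did not pass and 0 rose (8 lower and 0 higher at an unadjusted p below 0.05 in edgeR), with a median of −0.41. Perm1, which is induced by PGC-1 and ERR in muscle, had 268 and 279 CPM in wild type against 80.6 and 87.4 CPM in the mutant-labelled pair (log2 fold change −1.70, edgeR FDR 0.00815). Esrrb, an estrogen-related receptor, had a log2 fold change of −1.61 (edgeR FDR 0.0105) and Rxrg, a retinoid X receptor, one of −1.23 (edgeR FDR 0.0206). Lower calls were 8, 7, 4 and 2 without each library in turn. With wild type replicate 1 left out the median was −0.61, with mutant-labelled replicate 1 left out −0.62, and with library totals alone −0.04.

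The reference list for mitochondrial mass gives the setting for these values. Of its 24 genes, 9 fell, 15 did not pass and 0 rose (19 lower and 0 higher at an unadjusted p below 0.05 in edgeR), with a median of −0.82, against −1.25 for the 10 enzymes. Hspd1, a matrix chaperone (log2 fold change −1.32, edgeR FDR 0.0192), Sdha of complex II (−1.20, edgeR FDR 0.0247) and Timm23 of the inner membrane import channel (−1.50, edgeR FDR 0.0257) had the smallest adjusted p. Lower calls were 12, 23, 0 and 1 without each library in turn, with 7 at an unadjusted p below 0.05 in edgeR without mutant-labelled replicate 1. Its median was −0.49 with wild type replicate 1 left out and −0.40 with library totals alone. No test of the difference between the lists was made.

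**Figure D4:**
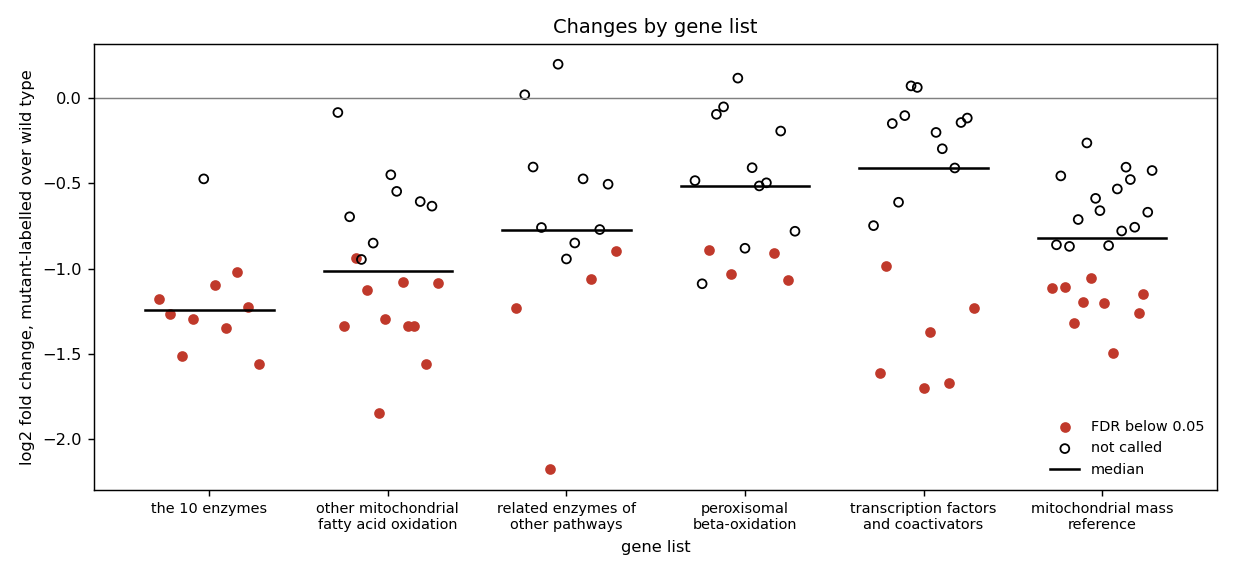
Log2 fold change, mutant-labelled over wild type, of each tested gene in the 10 enzymes and in 5 related gene lists; filled points passed an FDR of 0.05 in edgeR, open points did not, and lines are list medians. The medians run from −1.25 for the 10 enzymes to −0.41 for the regulators, and the highest point of the 10 is Eci1 at −0.47.

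The libraries differed in how their levels related to transcript length, with the wild-type pair at the extremes. The rank correlation (Spearman) of merged exon length with a library's difference from the average of the 4 was −0.30 in wild type replicate 1, 0.25 in wild type replicate 2, and 0.18 and −0.01 in the mutant-labelled pair. It is taken across genes, which are not independent replicates. With the trend of each library with length removed, 9 of the 10 enzymes were called lower (9.58% of all genes), with a median of −1.25. Of 7 adipocyte markers, Lep and Retn were at 0 in every library and Adipoq was at most 0.229 CPM, while Cidea was at 31.7 to 69.1 CPM. Summed macrophage and leukocyte markers were 165 to 206 CPM in wild type and 204 to 227 CPM in the mutant-labelled libraries.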

How the data were processed

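Heart RNA was quantified in 4 libraries as raw counts per Ensembl gene, and these counts were used as the authors deposited them. The submitters' processing notes name FastQC, HISAT2 and the mm10 build. Their versions, the counting program, its annotation, strand and the handling of reads with several matches were not given in the sources used here. Symbols, positions and exon lengths are from GENCODE M21 (GRCm38), which named 54723 of 54752 identifiers.

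Genes were kept with filterByExpr defaults, TMM-scaled, and compared by the two-sided quasi-likelihood test of edgeR 4.0.16 under R 4.3.3. Genotype label was the sole term, which leaves 2 residual degrees of freedom. P-values were adjusted by Benjamini-Hochberg over 15283 genes (FDR, threshold 0.05). The standard error is the log2 fold change divided by the square root of F. The median log2 CPM used a prior count of 2. Alternatives used limma 3.58.1, DESeq2 1.42.0, other scalings and filters, a replicate block, a length correction, and leaving out each library. Copies were sought with BLAST+ 2.17.0 (identity from 90%, alignments from 150 bases). The fit was tested on simulated data. Replicates differed beyond counting error (chi-square per degree of freedom 51.1 for the wild-type pair, 11.5 for the other). The libraries of a pair thus differ by more than a second sequencing of 1 library would give. That does not show that they come from separate animals.

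The members, lists, tests and alternatives were chosen with earlier results of these data known, and the pattern they show is not independent support. Named genes are the 10 enzymes, Carm1, and from each pathway list the 3 of lowest adjusted p among those called; from marker lists, counts, summed levels and markers at 0; and the 5 other genes of at least 50 CPM most alike in profile. Adipoq, Cidea, the Hadhb and Eci2 copies and the overlapping genes were named after their values were seen. Some genes that this rule names are not reported here. Planned protein features were not analysed here.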

Additional observations from a re-analysis of the deposited data

How the results depend on the processing

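All 10 log2 fold changes were below 0 in each of 17 alternative fits. The count of enzymes called lower was 9 or more in 13 of 18 alternatives and 8 with upper-quartile factors; the share of all genes called lower ran from 0.987% to 19.5% over these alternatives. With library totals alone it was 6 and the median log2 fold change −0.84. With 1 library left out the count ran from 0 to 10, the median from −1.48 to −1.03, and calls over all genes from 377 to 5679 (main 1126). Other totals of calls were 1705 with the DESeq2 Wald test, 2488 at an FDR of 0.10, 2689 with the length trend removed and 2630 with no filter on low counts. Library totals alone gave 206 lower and 1189 higher calls over all genes, against 700 and 426. The replicate numbers were not shown to pair the libraries: deviations of same-numbered libraries correlated by −0.25 across genes. With the replicate number as a block, 8 of the 10 enzymes were called, with a median of −1.24. With the crossed pairing, added after the data were seen, 9 of the 10 enzymes were called lower (14% of all genes) and 4176 genes in all were called. Carm1 was called with that crossed block (log2 fold change −0.54), with the length trend removed (−0.52) and without either wild-type library, and with 1 library left out its value ran from −0.64 to −0.47. The difference in the Hadha share was 3.13 percentage points per length, 4.36 with the Hadhb copies, and 2.71 to 2.88 with 1 library left out. The causes of these changes were not tested.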

Other observations

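Among 2664 other genes with a mean of at least 50 CPM, the 5 whose profile over the 4 libraries lay nearest to the median profile of the 10 enzymes were Mapkapk2, a stress-activated kinase, Pdhb, a subunit of pyruvate dehydrogenase, Pkm, of glycolysis, Sucla2, of the tricarboxylic acid cycle, and Acat1, the acetoacetyl-CoA thiolase. Likeness was measured as the root-mean-square difference of centred log2 CPM, which was 0.02 to 0.03 for these 5, on profiles of 4 values that share the same libraries and scaling. Among the 10 enzymes the same distance was smallest for Decr1 (0.02) and largest for Eci1 (0.41), with Hsdl2 at 0.20 and Ech1 at 0.15. Pdhb had 764 and 582 CPM in wild type and 278 and 284 CPM in the mutant-labelled libraries, and Mapkapk2 had 308 and 232 against 110.2 and 119 CPM.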
